A study of Homo sapiens with 12 samples.

Results

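The regions described here are the H3K27ac ChIP-seq peaks of Huh7 cells that were called after transfection with a control siRNA (siNC) and that shared no base with any peak called after knockdown of HSF1 (siHSF1). They are termed siNC-only peaks. They were chosen by measured values, namely by whether a peak had been called in each list, so their absence from the siHSF1 list is the way they were selected and not a result. On chromosomes 1 to 22 and X, 19828 of the 41081 siNC peaks were siNC-only, which is 48.3% of the list (95% Wilson interval 47.8 to 48.7%). The other 21253 siNC peaks shared at least 1 bp with a siHSF1 peak and are termed shared. In the reverse direction, 11599 of the 45585 siHSF1 peaks shared no base with a siNC peak, which is 25.4% (25.05 to 25.85%). The other 33986 siHSF1 peaks overlapped the 21253 shared siNC peaks, so several siHSF1 peaks could fall in 1 siNC peak. The shares of the lists therefore count unlike units and do not set loss against gain. The siNC-only peaks covered 9.95 Mb and the shared siNC peaks 32.0 Mb, so that siNC-only peaks made up 23.7% of the bases in siNC peaks. All intervals of shares given here cover counting error only, and neighbouring peaks are not independent of each other.

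ChIP-seq sequences the DNA bound by a protein or a histone mark after pulling it down with an antibody, and a peak is a stretch where these tags pile up over the input, the same chromatin without the antibody. Huh7 is a human hepatocellular carcinoma cell line, labelled wild type, and both groups were this line harvested 48 h after siRNA transfection with Lipofectamine RNAiMAX. The siNC group received a negative control siRNA and the siHSF1 group an siRNA against HSF1, with no further agent named, and the labels do not say which of the siRNAs against HSF1 was used for ChIP-seq. The comparison addresses where H3K27ac differed after HSF1 was reduced, and each group had 1 ChIP library and 1 input library, so no value below has a replicate check and no test between the conditions was possible.

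Acetylation of histone H3 at lysine 27 is placed on the nucleosomes beside active promoters and enhancers by the acetyltransferases p300 and CBP and is removed by histone deacetylases. Long stretches of closely spaced enhancers with heavy H3K27ac are termed super-enhancers, and they are often found near genes that define a cell type or drive a tumour. HSF1 is the transcription factor that activates chaperone genes after heat shock, and in tumour cells it also drives other gene programmes.

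The libraries differed in ways that bear on which peaks could be called. The siNC ChIP library held 13140316 tags, of which 9795121 remained after duplicates were removed, and the siHSF1 ChIP library held 14979176 tags, of which 10793650 remained. Their inputs kept 10136239 and 11251156 tags. The peak caller extended each tag to its own estimate of the fragment length, which was 297 bp for siNC and 175 bp for siHSF1, and no peak in a list was shorter than that length. Among others, the caller listed 187 bp as another candidate for siNC, and 264 and 292 bp as other candidates for siHSF1, so that each library had a short and a long candidate, and the long one was used for siNC and the short one for siHSF1. With these lengths the expected number of extended tags at any base of the genome was 1.08 in siNC and 0.70 in siHSF1. The lists had been called separately, and their pileups, which are unscaled tag numbers, were therefore not compared between conditions. Fold enrichments also rest on each list's own fragment length and background. Where values of both lists stand side by side below, they do not measure a change.

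The siNC-only peaks were shorter and lower than the shared siNC peaks. Their median length was 421 bp (quartiles 327 and 584 bp) against 943 bp (540 and 1813 bp), a ratio of 0.446. Their median fold enrichment, the tag pileup at the summit over the local background with 1 added to each, was 4.52 (3.85 and 5.29) against 6.16 (4.81 and 8.18), a ratio of 0.734. Most siNC-only peaks therefore lay in the low part of the siNC list on both measures, although the ranges overlapped widely.

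The same order held for the other columns of the list. The median pileup was 10 tags in siNC-only peaks and 14 tags in shared peaks. The median -log10 q-value, the caller's significance after adjustment over the genome, was 4.22 against 7.68. The local background recovered from pileup and fold enrichment was 1.15 tags at the median in both sets, and it sat at the genome-wide floor in 41.5% of siNC-only peaks and 39.3% of shared peaks. The lower fold enrichment of siNC-only peaks thus came with fewer tags at the summit and not with a higher background.

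**Figure D1:**
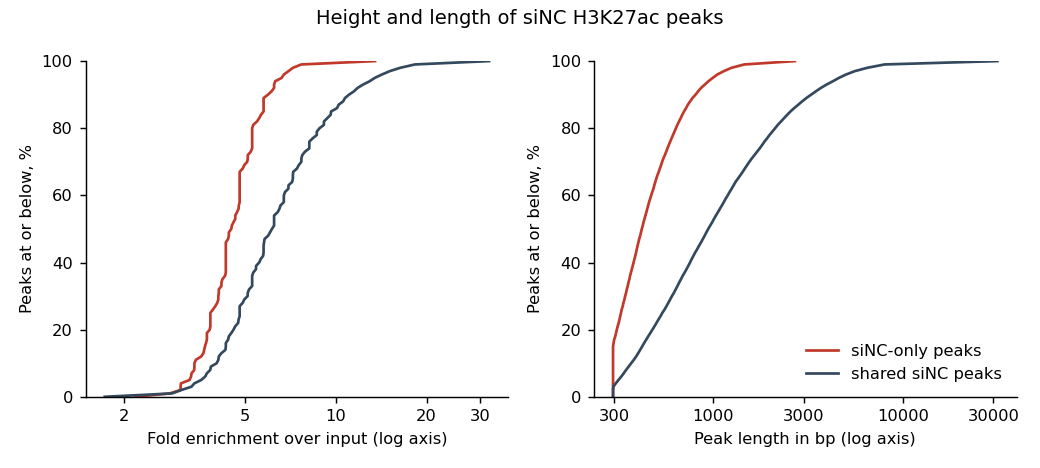
Cumulative percentage of siNC-only peaks (n = 19828) and shared siNC peaks (n = 21253) at or below a given fold enrichment over input (left, log axis) and a given length in bp (right, log axis). The siNC-only curves lie to the left of the shared curves in both panels, with medians of 4.52 against 6.16 and of 421 against 943 bp, and they end at 13.5 and 2698 bp while the shared curves run on to 32.2 and 31522 bp.

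Of the siNC-only peaks, 1776 (8.96%) reached the shared median fold enrichment and 1204 (6.07%) reached the shared median length. A -log10 q-value of 10 or more was found in 374 siNC-only peaks (1.89%) and in 7572 shared peaks (35.6%). Many siNC-only peaks were about as short as the caller allowed. Exactly 297 bp, the length of 1 extended tag, was the length of 3063 siNC-only peaks (15.4%) and of 630 shared peaks (2.96%), and 75.9% of siNC-only peaks were under 2 fragment lengths, against 28.9% of shared peaks.

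The siHSF1 list was split in the same way for comparison. Its siHSF1-only peaks had a median length of 232 bp against 404 bp in the siHSF1 peaks that overlapped siNC peaks, a ratio of 0.574, and a median fold enrichment of 4.71 against 5.88, a ratio of 0.800. Peaks found in 1 list alone were therefore the shorter and lower ones in both lists, and being short and low was not particular to the siNC-only set.

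The share of siNC peaks that were siNC-only fell with peak height. Over deciles of the siNC list ranked by fold enrichment, it was 70.1, 73.4 and 72.9% in the lowest 3 deciles, 61.1, 63.5, 55.1 and 43.7% in the next 4, and 29.8, 12.1 and 0.876% in the highest 3. Against the 48.3% of the whole list, the lowest 6 deciles were above and the highest 4 below. In absolute numbers, 1957 of the 13003 siNC peaks at 6-fold enrichment or more were siNC-only (15.1%), as were 549 of 8407 at 7 or more (6.53%), 165 of 5812 at 8 or more (2.84%), 11 of 3033 at 10 or more (0.363%) and 1 of 1666 at 12 or more (0.0600%). High siNC peaks missing altogether from the siHSF1 list were thus few.

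Length separated the sets further at a given height. In decile 8 by fold enrichment, siNC-only peaks had a median length of 630 bp and shared peaks 987 bp, and in the lowest decile 393 bp and 531 bp. By length alone, 82.0% of the shortest decile of siNC peaks (297 to 301 bp) were siNC-only, against 8.13% of decile 9 (1282 to 2173 bp) and 0.389% of the longest. When the list was also cut into 3 equal classes by length, the siNC-only share in the lowest decile of fold enrichment was 80.2% in the short class, 67.3% in the middle class and 30.05% in the long class. A longer peak offers more bases in which a siHSF1 peak can fall, so length enters the rule itself.

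**Figure D2:**
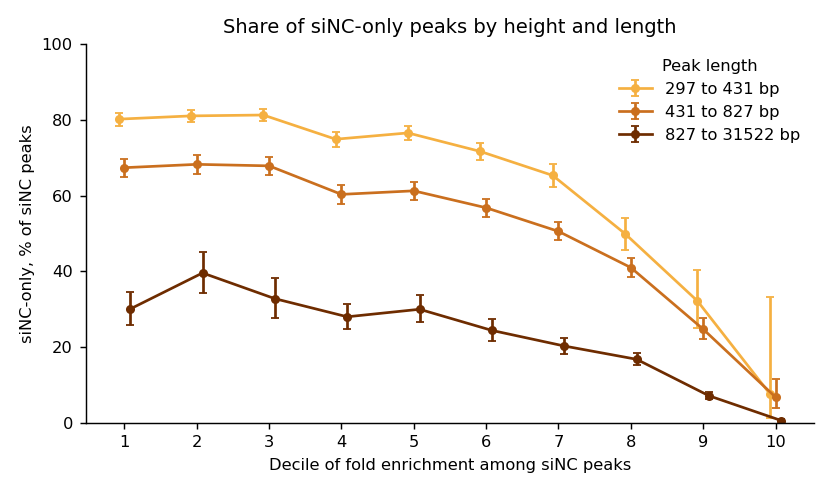
Percentage of siNC peaks that were siNC-only (y axis) in each decile of the siNC list by fold enrichment (x axis, 1 lowest, 10 highest), with 1 line for each of 3 equal classes by length and bars for 95% Wilson intervals. In every class the share is lowest in decile 10, and from decile 1 to decile 7 the shortest peaks lie highest (80.2% and 65.3% in these deciles) and the longest lowest (30.05% and 20.3%).

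The 10 siNC-only peaks with the highest fold enrichment on hg19 are given with their neighbours. The highest was chr3:171110536-171111605, 1070 bp long, where 28 tags piled up at the summit, 13.5-fold over background, at a -log10 q-value of 25.9. It ranked 992 among all siNC peaks by fold enrichment. No other siNC peak lay within 12500 bp of it, and the nearest siHSF1 peak, itself siHSF1-only with a fold enrichment of 4.23, was 33.3 kb away. It was thus a strong peak with no neighbour within 12500 bp in either list.

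The next was chr18:55763157-55764848, 1692 bp long, with 23 tags and a fold enrichment of 11.5. A siHSF1 peak with a fold enrichment of 5.30 lay 2.55 kb away. The third, chr5:80718849-80719518, had 22 tags and a fold enrichment of 11.1, with a siHSF1 peak of fold enrichment 8.17 only 305 bp away. In contrast to the highest peak, both had acetylated sequence called nearby in siHSF1 cells.

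Of the remaining 7, chr1:23671046-23671984, chr1:113975707-113976730 and chr11:62608985-62610438 had fold enrichments of 10.6, 10.6 and 10.4 and lay 309, 333 and 132 bp from siHSF1 peaks whose own fold enrichments were 9.41, 7.15 and 9.24. Each of these 3 had a siHSF1 peak close by. The peaks chr1:3031268-3031941 and chr9:33171878-33172972 had fold enrichments of 10.9 and 10.6 and lay 4.11 and 2.50 kb from siHSF1 peaks with values of 4.65 and 4.71. The peaks chr1:59679300-59680483 (10.6) and chr1:183013019-183014845 (10.1) lay 70.5 and 20.9 kb from the nearest siHSF1 peak. In all, 7 of the 10 had a siHSF1 peak within 12500 bp and 4 had one within 1 kb. Among the 100 highest siNC-only peaks these numbers were 76 and 54.

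The 5 longest siNC-only peaks ran from 2545 to 2698 bp. The longest, chr9:136603678-136606375, had 12 tags at its summit and a fold enrichment of 5.97, and the second, chr2:36788741-36791426 of 2686 bp, had 13 tags and 6.74 and was isolated, with the nearest siHSF1 peak 33.6 kb away. The third was chr8:17645781-17648405, 2625 bp long with a fold enrichment of 7.22. The peaks chr12:66273441-66276020 and chr2:239181766-239184310 were 2580 and 2545 bp long with fold enrichments of 5.78 and 6.57, and siHSF1 peaks lay 425 and 411 bp from them. Thus the longest siNC-only peaks were broad and of moderate height, and none of the 5 was among the 10 highest.

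Most siNC-only peaks had a siHSF1 peak in their neighbourhood. The gap to the nearest siHSF1 peak had a median of 1456 bp (quartiles 459 bp and 8.65 kb), and 10% of the gaps were above 43.6 kb. Within 100 bp lay 1010 siNC-only peaks (5.09%), of which 17 abutted a siHSF1 peak with no base between, and within 297 bp, the siNC fragment length, lay 3299 (16.6%). Within 1 kb lay 8278 (41.7%) and within 12500 bp 15607 (78.7%). No siHSF1 peak was found within 12500 bp of 4221 siNC-only peaks (21.3%), within 100 kb of 901 (4.54%) or within 1 Mb of 32 (0.161%).

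The median fold enrichment was 4.66 for siNC-only peaks with a siHSF1 peak within 100 bp and 4.78 for those over 50 kb away. It was lowest at 1 to 5 kb, with 4.33, and highest at 100 to 297 bp, with 4.81. The medians of the other bins lay between these lowest and highest values. The median length was 450 bp within 100 bp, 402 bp at 1 to 5 kb and 413 bp over 50 kb. The medians showed no steady rise or fall with distance.

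Some of the siHSF1 peaks beside siNC-only peaks had no siNC counterpart either. Among the 3299 siNC-only peaks with a siHSF1 peak within 297 bp, the nearest siHSF1 peak was siHSF1-only in 1610 (48.8%). Within 12500 bp it was so in 5244 of 15607 (33.6%). By the rule, this nearest siHSF1 peak cannot overlap the siNC-only peak beside it, which by itself raises its chance of being siHSF1-only. The shares are therefore a description and cannot be set against the 25.4% of the whole siHSF1 list. At these places each list held a peak, and that the called stretches did not meet follows from the rule.

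The rule of 1 shared base divided peaks of nearly the same size. The 993 siNC-only peaks with a gap of 1 to 100 bp had a median length of 448 bp, a median fold enrichment of 4.66 and a median -log10 q-value of 4.38. The 1215 shared peaks that had 1 to 100 bp in common with siHSF1 peaks had medians of 450 bp, 4.66 and 4.38. When a siHSF1 peak within 1 kb was also counted as shared, 11550 siNC-only peaks (28.1% of the list) were left. When instead the siNC summit had to lie in a siHSF1 peak, 26332 (64.1%) were siNC-only, since in 6504 shared peaks (30.6%) the summit lay in no siHSF1 peak.

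Shared siNC peaks lay somewhat farther away than siHSF1 peaks did, but they were also fewer (21253 against 45585). A smaller set leaves wider gaps by itself. The gap from a siNC-only peak to the nearest shared siNC peak had a median of 2404 bp (quartiles 572 bp and 18.5 kb), and the smallest was 130 bp. A shared siNC peak was present within 1 kb of 6900 siNC-only peaks (34.8%), within 12500 bp of 13960 (70.4%) and within 100 kb of 18356 (92.6%).

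To separate isolated peaks from the edges of clusters, siNC peaks no more than 12500 bp apart were stitched, the distance commonly used to assemble super-enhancers. This gave 14419 clusters, single peaks included. Isolated peaks, with no other siNC peak within that distance, numbered 3068 (15.5% of siNC-only peaks, 15.0 to 16.0%). Another 2360 (11.9%) lay in 999 clusters made of siNC-only peaks alone. The remaining 14400 (72.6%, 72.0 to 73.2%) lay in 5822 clusters that also held shared peaks, 9313 of them (47.0%) outside the outermost shared peak, here termed edge, and 5087 (25.7%) between shared peaks, here termed interior. By these definitions a shared peak is never edge, and the siNC-only peak of a cluster of 2 with 1 shared peak always is, which was so for 1558 of the edge peaks (16.7%).

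**Figure D3:**
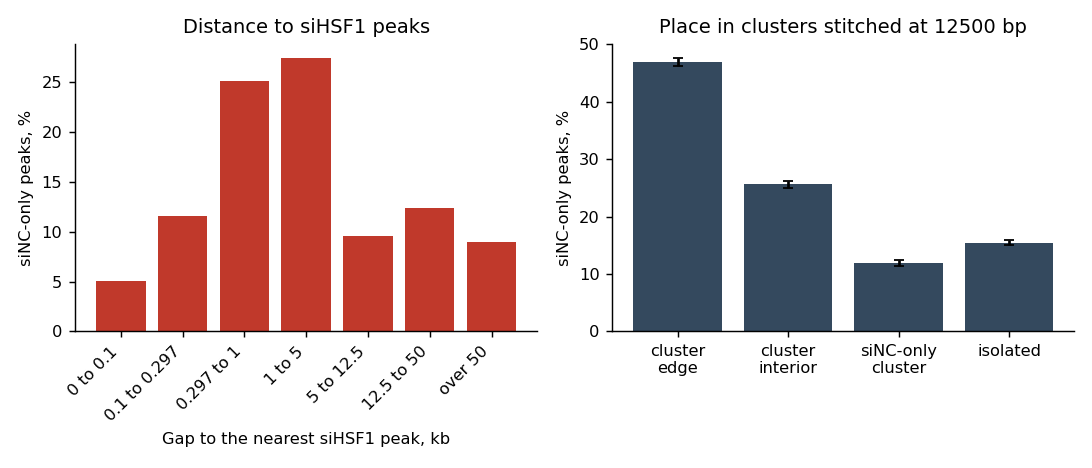
Left, percentage of the 19828 siNC-only peaks (y axis) by the gap in kb to the nearest siHSF1 peak (x axis, upper bounds included), with the highest bar, 27.4%, at 1 to 5 kb. Right, percentage in each place relative to clusters of siNC peaks stitched at 12500 bp, with 95% Wilson intervals, from 47.0% at cluster edges to 11.9% in clusters of siNC-only peaks.

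Clustering by itself did not mark the siNC-only peaks. Clusters of 2 or more peaks held 84.5% of siNC-only and 85.3% of shared peaks. The siNC-only share was 49.6% among single peaks, 45.7% in clusters of 2, 47.2% in clusters of 3 or 4, 48.2% in clusters of 5 to 9, 49.7% in clusters of 10 to 19 and 52.2% in the 92 clusters of 20 to 87 peaks. These shares stayed within a few percentage points of the 48.3% of the list.

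The classes were close in median height and length. The median fold enrichment was 4.43 at edges, 4.52 in the interior, 4.66 in siNC-only clusters and 4.66 in isolated peaks. The median lengths were 416, 441, 419 and 410 bp. The medians of the isolated peaks were thus slightly higher in fold enrichment and slightly shorter than those of the edge peaks.

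The clusters that held both kinds contained 29155 peaks, of which 49.4% were siNC-only. The shared peak nearest to each of the 14400 siNC-only peaks had a median fold enrichment of 6.48 and a median length of 1149 bp, against 4.43 and 425 bp for the siNC-only peaks themselves. The highest peak of the cluster was siNC-only in 815 of the 5822 clusters (14.0%). Where peaks tied in fold enrichment, the first along the chromosome was taken.

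Isolated peaks were mostly isolated from siHSF1 peaks too, which the class definitions fix in part. A shared peak overlaps a siHSF1 peak by rule. Edge and interior peaks lie in a cluster with a shared peak, whereas isolated peaks and siNC-only clusters have none within 12500 bp. The median gap to the nearest siHSF1 peak was 32.3 kb for isolated peaks and 23.9 kb for peaks in siNC-only clusters, against 1.02 kb at edges and 838 bp in the interior. Of the 3068 isolated peaks, 2379 (77.5%) had no siHSF1 peak within 12500 bp and 689 had one. Their median fold enrichments were 4.66 and 4.59. Of the 999 siNC-only clusters, 671 (67.2%) had no siHSF1 peak within 12500 bp of any of their peaks.

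The 5 isolated peaks highest in fold enrichment, with no siHSF1 peak within 12500 bp, began with chr3:171110536-171111605 and chr1:183013019-183014845, described above. The third, chr1:229019742-229021713, was 1972 bp long with 22 tags and a fold enrichment of 10.0, and lay 19.2 kb from a siHSF1 peak. The peaks chr6:45506346-45508311 (1966 bp) and chr21:35573657-35574383 (727 bp) each had 18 tags and a fold enrichment of 9.15, with the nearest siHSF1 peaks 91.3 and 127 kb away. That the siHSF1 list held no peak within 12500 bp of these 5 peaks is how they were picked and not a result. Among isolated peaks that did have a siHSF1 peak within 12500 bp, the highest fold enrichment was 9.52.

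Clusters of siNC-only peaks alone were small. Of the 999, 755 held 2 peaks, 173 held 3 and 71 held 4 or more. The 4 with 8 peaks each were chr8:126282264-126300420 (18.2 kb), chr5:34829254-34849885 (20.6 kb), chr15:63374512-63400187 (25.7 kb) and chr20:2279563-2297406 (17.8 kb), and chr3:111481722-111505557 (23.8 kb) held 7. The first 3 had no siHSF1 peak in their span, and their highest fold enrichments were 6.05, 6.98 and 6.26. The cluster on chromosome 20 contained 1 siHSF1-only peak with a fold enrichment of 3.93 and the one on chromosome 3 contained 2, the higher at 4.71. All 5 were groups of modest peaks without a tall one among them.

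Runs of consecutive siNC-only peaks along a chromosome are given as a description, since a list in which 48.3% of peaks are siNC-only holds such runs in any order. The 19828 peaks formed 9495 runs uninterrupted by a shared siNC peak, of which 4452 were a single peak, 2502 were pairs and 2541 held 3 or more. Runs of 3 or more contained 10372 of the peaks (52.3%), and 27 runs held 10 or more.

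The longest run, of 16 peaks, filled 19.6 kb at chr3:30674334-30693902. Its peaks were 297 to 1351 bp long, covered 10701 bp together and had fold enrichments of 3.07 to 6.74. The siHSF1 list had no peak within the run. On both sides stood shared siNC peaks, the large ones with fold enrichments of 22.1 and 16.0. The highest siHSF1 peaks there had 12.4 and 13.7 in their own list, values that are not on the same scale. The siNC block before the run, 10409 bp long, was broken up in the siHSF1 list into 8 peaks that covered 66.4% of its bases, and the 7218 bp block after it was covered to 87.4% by 2 siHSF1 peaks. The siNC list thus held 16 peaks in the run between the blocks, whereas the siHSF1 list covered both blocks in part and held, beyond the end of the run, 1 siHSF1-only peak 118 bp away.

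**Figure D4:**
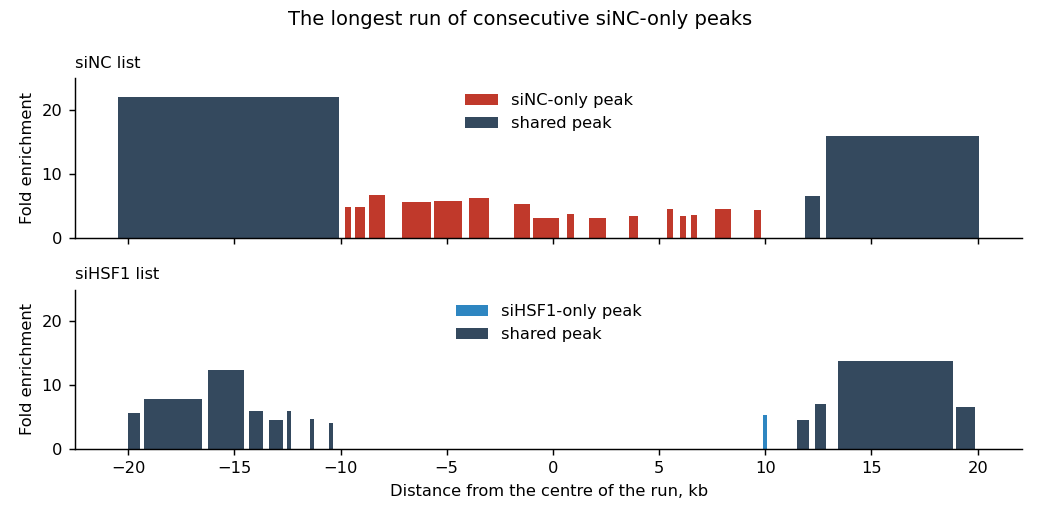
Peaks around the longest run of siNC-only peaks in the siNC list (top) and the siHSF1 list (bottom), with the distance in kb from the centre of the run on the x axis and fold enrichment at the summit on the y axis. Each block spans the length of 1 peak, and the 16 siNC-only peaks (3.07 to 6.74) stand between shared peaks of 22.1 and 16.0 with no siHSF1 peak below them.

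The other long runs were sparser. The run of 15 peaks at chr3:171976936-172309401 stretched over 332 kb with fold enrichments of 3.33 to 5.89, and its span held 6 siHSF1-only peaks. The runs of 13 peaks at chr2:54839640-54893476 (53.8 kb), chr19:39197711-39251905 (54.2 kb) and chr1:109969285-110275029 (306 kb) held 3, 4 and 2 siHSF1-only peaks. Their highest fold enrichments were 6.74, 7.22 and 6.26, and those of the siHSF1 peaks between them 4.12, 5.70 and 5.30. In these 4 runs low peaks were called in both conditions. That they did not overlap follows from the definition of a run.

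The siNC-only peaks were spread over all 23 chromosomes in nearly the proportions of the siNC list. Chromosome 1 held 1973 of them, 9.95% of siNC-only peaks and 9.78% of all siNC peaks, and chromosome 21 held 201 (1.01 and 0.998%). The siNC-only share of a chromosome's peaks ran from 43.8% on chromosome 19 (552 of 1259, 41.1 to 46.6%) to 53.4% on chromosome X (365 of 683, 49.7 to 57.2%), a ratio of 1.22. The Wilson interval spanned the overall 48.3% on 18 chromosomes, lay above it on chromosomes 22 (52.5%) and X, and lay below it on chromosomes 6 (46.0%), 12 (45.8%) and 19.

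Chromosome X stood out in 2 further values. Of its siNC-only peaks 24.1% were isolated, against a median of 15.8% over the chromosomes and 19.6% on chromosome 8, the next highest. Isolation depends on how sparsely siNC peaks lie on a chromosome. The isolated share of shared peaks is not given by chromosome, so the value cannot be read as a trait of siNC-only peaks. Of the siHSF1 peaks on chromosome X, 30.7% were siHSF1-only, the highest share, followed by chromosome 19 with 29.0%. Chromosome 19 thus had the lowest siNC-only share and the second highest siHSF1-only share, while chromosome X was highest in both. The median fold enrichment of siNC-only peaks ran from 4.15 on chromosome 20 to 4.81, and chromosome 20 also had the highest median local background, 1.75 tags.

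On a finer scale the share varied more. Each window holds fewer peaks than its chromosome, which by itself widens the spread through counting error. In the 257 windows of 10 Mb with at least 50 siNC peaks, the median siNC-only share was 48.3% (quartiles 44.4 and 51.7%). It was highest between 70 and 80 Mb of chromosome 3, with 36 of 56 peaks (64.3%, 51.2 to 75.5%), and between 50 and 60 Mb of chromosome 2, with 74 of 116 (63.8%, 54.7 to 72.0%). It was lowest between 80 and 90 Mb of chromosome 14, with 12 of 50 (24.0%, 14.3 to 37.4%), and between 40 and 50 Mb of chromosome 5, with 24 of 92 (26.1%, 18.2 to 35.9%). These windows were picked as the extremes of many, and the chromosome 5 window had a median local background of 1.72 tags against 1.08 in the other 3.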

How the data were processed

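H3K27ac ChIP-seq peak lists of siNC and siHSF1 Huh7 cells, 1 library each with its own input, were used. The authors called peaks with MACS 2.1.1.20160309 at a q-value of 0.05, single-end and without duplicate tags. Alignment with BWA to hg19 is given in the file headers, but Bowtie2 or Bowtie and hg38 in the methods and labels. In the siNC list 228 peaks on 12 chromosomes end past the ends of the hg38 chromosomes, and in the siHSF1 list 234, so hg19 was taken as the build. With no hg19 sequence or annotation used here, no gene was named and no sequence was read, and the CUT&Tag lists, which are on hg38, and the RNA-seq samples were not used.

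The authors deposited the pileup as an unscaled signal that counts extended tags at the summit. Their deposited fold enrichment divides pileup by local background after adding 1 to both and is thus a ratio, and the deposited -log10 q-value comes from the Poisson model of the caller. Positions, lengths and summits were used as deposited by the authors.

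From these, shared bases, gaps, clusters at 12500 bp (gaps counted in bases between peaks) and runs were computed in Python 3.11.15 with pandas 2.3.3 and numpy 2.4.6, intervals with scipy 1.17.1 and plots with matplotlib 3.10.9. Local background was recovered from pileup and fold enrichment. Bedtools 2.31.1 found the same 19828 peaks. The interval arithmetic was tested on simulated data. Regions were named by rule: the 10 highest and 5 longest siNC-only peaks, and the 5 largest siNC-only clusters and runs. The 5 highest isolated peaks among those with no siHSF1 peak within 12500 bp were named too. The members, lists and rules were chosen with earlier results of these data known. Other overlaps, q-values and stitching distances were tried as alternatives.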

Additional observations from a re-analysis of the deposited data

Results flagged for a closer look

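Outside the chromosomes used, 26 siNC peaks lay on 6 unplaced contigs, and 6 of them (23.1%) shared no base with a siHSF1 peak. The median fold enrichment was 3.78 for these 6 and 5.29 for all 26. They were flagged because they hold signal above input in sequence that no comparison of the report used. Of 50 siHSF1 peaks on such contigs, 12 (24.0%) were siHSF1-only.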

How the results depend on the processing

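Of 40 alternatives over 6 results, 21 left the value within its counting interval or within 1.5 times and 19 moved it. Only the ratios of median fold enrichment and length had a direction that could reverse. They stayed below 1, at 0.708 to 0.809 and 0.401 to 0.572 over the alternatives. For the fold enrichment ratio a bound of 1.5 times reaches above 1, so the bound alone says little about direction. Both ratios were among the 21 under every alternative tried. The ratio of the highest to the lowest chromosome share (1.22) was too, but a bound of 1.5 times is wide for it: it was 1.35 with siHSF1 peaks within 1 kb counted, 1.40 and 1.46 under the q-value minimum in both lists and in the siNC list, and 1.14 to 1.24 otherwise. The siNC-only share of 48.3% was 28.1% when a siHSF1 peak within 1 kb counted as shared, 64.1% when the summit had to lie in a siHSF1 peak, 71.2% when siHSF1 peaks had to cover 50% of the siNC peak, 47.0% at a -log10 q-value of at least 5 in both lists and 29.2% with that minimum in the siNC list alone. Under these 5 settings the share in clusters with a shared peak (72.6%) was 62.3, 66.0, 59.4, 57.2 and 65.4%, and the isolated share (15.5%) moved to 22.5, 14.9, 26.9 and 26.9% in all but the setting of 50% cover. Stitching at 5 kb gave 63.2 and 21.9%, and at 25 kb 80.1 and 10.7%. An alternative chosen after seeing the data extended each siHSF1 peak by 61 bp on both sides, which brings the shortest from 175 to 297 bp. The siNC-only share was then 46.7%. Pileup, background and the calling of peaks were left as they were, so this covers only part of what the fragment length changes. Peaks called anew with 1 fragment length for both libraries were not analysed here, so the part of that choice in the list was not tested beyond this.

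No replicate was left out, since each condition had 1 library. No paired analysis was possible because the results come from no test. With 9795121 siNC tags kept the lowest siNC peaks rest on 6 tags at the summit. With 10793650 siHSF1 tags kept the lowest siHSF1 peaks rest on 5. A peak missing from a list thus shows that it was not called at the depth and fragment length of that list, not that the mark was absent.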
